A study of Mus musculus with 2 samples.

Results

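The checkpoint receptor genes Pdcd1, Ctla4, Tigit, Lag3, Havcr2, Icos and Cd96 were followed across the immune cells of the mouse small-intestinal lamina propria, in normal mice and in mice without Zfp36. Their rows were found by gene symbol, and they are 7 of the 31053 features counted in both libraries. The label of the set names innate lymphoid cells (ILCs) and T cells. Havcr2 was highest in dendritic cells, Tigit did not pass 3 UMIs (counted molecules) in any ILC class, and Ctla4 was also found in plasma cells.

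The study sorted live CD45+ cells of the small-intestinal lamina propria that lacked lineage markers, CD3 and TCRβ and carried CD90.2 and CD127, and sequenced the 3 prime ends of their transcripts in droplets. There were 2 libraries, both from C57BL/6 mice. The WT library held the pooled cells of 4 wild-type mice, and the Zfp36_KO library the pooled cells of 4 Zfp36-/- mice, called knockout here. The labels tie no Cre line to Zfp36-/- and call the sorted cells ILCs. Age, housing and treatment of the mice are not given in the sources used here. With 1 library per genotype there is no test between genotypes: the intervals below are 95% intervals for counting error only, and differences between the mice of a pool, between pools and between genotypes cannot be told apart.

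Cells were assigned to classes by counting unique molecular identifiers (UMIs, each standing for 1 captured transcript molecule) of marker genes. The classes in WT and knockout held 176 and 185 ILC1/NK cells, 564 and 1020 ILC2, 766 and 844 ILC3, 1180 and 59 T cells, 20 and 176 Plet1-positive dendritic cells, 48 and 134 macrophages, and 97 and 148 plasma cells. Cells with ILC2 markers and a UMI of Ncr1 were kept apart (104 and 166 cells). T cells, dendritic cells, macrophages and plasma cells were present although the sort selected against CD3, TCRβ and lineage markers. The median UMI count per cell was 5292.5 in WT and 5336.5 in knockout. Levels are counts per 1000000 UMIs of a class (CPM), summed over its cells. Zfp36 itself stood at 874 CPM in WT and 257 CPM in knockout ILC1/NK cells, at 698 and 325 CPM in ILC2, at 1159 and 293 CPM in ILC3, at 370 and 207 CPM in T cells, at 898 and 549 CPM in dendritic cells, at 1486 and 997 CPM in macrophages and at 146 and 56.0 CPM in plasma cells, lower in the knockout each time. Its transcripts did not vanish, and 3 prime tags outside the deleted part of a gene would still be counted. In the knockout 448 cells (13.4%) carried UMIs of Y-linked genes and none of Xist, against 0 in WT, so the knockout pool held cells of both sexes. Sex and genotype are therefore partly confounded, and knockout values are given for cells with Y-linked UMIs and cells with Xist apart where that bears on a result. The class called macrophages also carried lymphoid transcripts (39.0 CPM of Ccr6 in WT), and its values are not read as macrophage expression.

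Checkpoint receptors are surface proteins that set how strongly a lymphocyte responds. PD-1 (Pdcd1) recruits a phosphatase that dampens activating signals when it meets its ligands PD-L1 and PD-L2, CTLA-4 (Ctla4) competes with the activating receptor CD28 for CD80 and CD86, and LAG-3 and TIM-3 (Havcr2) are further inhibitory receptors. TIGIT and CD96 compete with the activating receptor CD226 for the poliovirus receptor and related nectins, and ICOS is the exception, a costimulatory receptor that signals through phosphoinositide 3-kinase. Tristetraprolin, the product of Zfp36, is an RNA-binding protein that binds AU-rich elements in 3 prime untranslated regions (UTRs) and promotes removal of the poly(A) tail and decay of the message.

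In build mm10 the genes lie on 4 chromosomes. Ctla4 (chr1:60887000-60915832, plus strand) and Icos (chr1:60977927-61000320, plus strand) are neighbours, and Pdcd1 lies on the same chromosome (chr1:94038305-94052553, minus strand). Tigit (chr16:43648867-43664146, minus strand) and Cd96 (chr16:46035657-46120251, minus strand) share chromosome 16. Lag3 is at chr6:124904361-124911705 on the minus strand and Havcr2 at chr11:46454935-46481255 on the plus strand. The sense strand of the longest annotated 3 prime UTR of each gene (GENCODE M21) was searched for TATTTAT, the DNA spelling of the core that tristetraprolin prefers, and for the shorter ATTTA, which every TATTTAT contains. None of the 7 genes holds TATTTAT, which occurs in 27.6% of the 20986 genes with an annotated 3 prime UTR. For Icos, whose UTR of 2606 bases is the longest of the set, the share among UTRs of like length (no shorter than 80% of it, and not so long that it falls below 80% of theirs) was 49.3%, and for Pdcd1 with 1000 bases it was 24.8%. ATTTA was present in Ctla4 (3 matches in 1115 bases), Icos (2 matches) and Havcr2 (1 match in 1809 bases), against 78.5%, 94.6% and 89.0% of UTRs of like length with at least 1 match. Pdcd1, Tigit, Lag3 and Cd96 hold no ATTTA, against 75.1%, 16.9%, 11.8% and 26.9% of UTRs of like length. A match is a description of letters, not a binding site, and the lack of one says only that these letters are not in this annotated stretch. The 6 matches are shown because they are the whole AU-rich content, by this spelling, of the set, with ATTTA in capitals and 5′ to 3′ on the sense strand, in the order Ctla4 (chr1:60914873-60914897, chr1:60915064-60915088 and chr1:60915157-60915181), Havcr2 (chr11:46481239-46481255, at the end of the UTR) and Icos (chr1:60997806-60997830 and chr1:60998730-60998754).
Ctla4 site 1: gcatactacaATTTAaagctaagga
Ctla4 site 2: cacatcttgtATTTAcctgagagat
Ctla4 site 3: aggtttaaacATTTAttcacagagc
Havcr2: ctttgagcatATTTAaa
Icos site 1: acctgacttgATTTAactacagaca
Icos site 2: tgaattatctATTTAgcctgaaagc

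Each receptor had its own pattern over the cell classes. Pdcd1 was found in ILC2, in ILC3 and in T cells, with little in NCR+ ILC3. Ctla4 was far higher in regulatory and conventional T cells than in any ILC class. Icos and Cd96 were present in all ILC and T cell classes. Among lymphoid cells Lag3 was highest in regulatory T cells and ILC1/NK cells, and Tigit was near the detection limit in all classes. The plot of levels shows these patterns side by side.

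**Figure D1:**
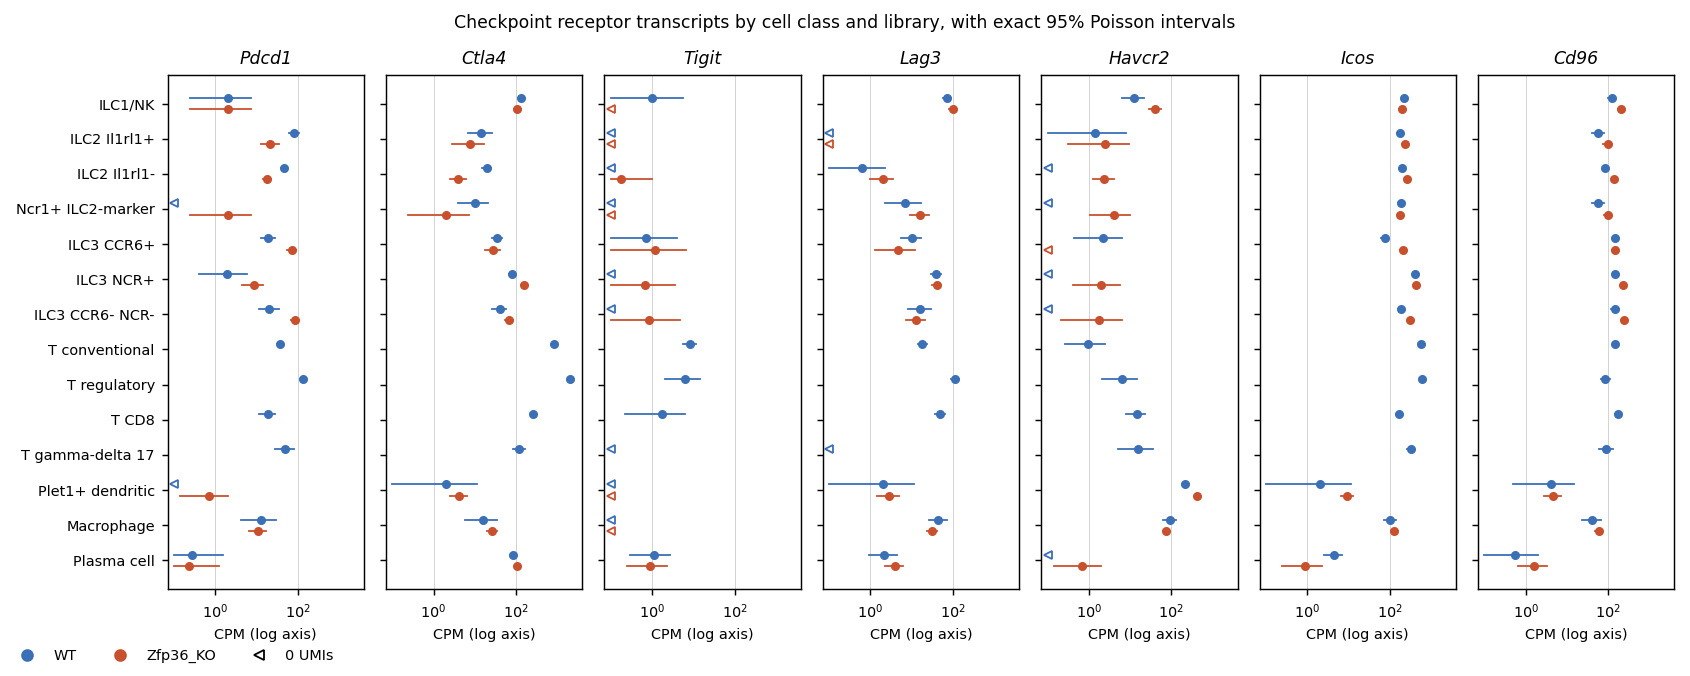
Level of each receptor transcript (CPM, log axis) by cell class, in WT (blue) and Zfp36_KO (red), with exact 95% Poisson intervals as lines and open triangles at the left edge for 0 UMIs; groups under 15 cells are left out. Pdcd1 lies to the left in knockout ILC2 and to the right in knockout CCR6+ and CCR6- NCR- ILC3, Ctla4 reaches 2021 CPM in WT regulatory T cells, and Havcr2 is highest in dendritic cells.

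A gene was called higher or lower in the knockout where its CPM differed at least 2-fold, the 95% interval of the log2 ratio lay on that side of 0, and at least 20 UMIs were seen over both libraries. In ILC2, 2 of the 4 receptors tested were called lower (Pdcd1 and Ctla4) and 0 higher, where 1.72% of all 10327 genes tested were called lower and 4.77% higher. In ILC3 as a whole, 1 of 5 was called higher (Pdcd1) and 0 lower, against 3.87% and 1.73% of all genes. Among the ILC3 subsets, 2 of 4 were called higher in CCR6+ cells (Pdcd1 and Icos; 5.72% of all genes), 1 of 5 in cells without UMIs of Ccr6 or Ncr1 (Pdcd1; 5.61%) and 0 of 4 in NCR+ cells (4.43%), and 0 were called lower in any subset (1.66% in CCR6+, 1.51% in the cells without either marker and 1.61% in NCR+). Within ILC2, 1 of 3 was called lower in cells with a UMI of Il1rl1 (Pdcd1; 1.74% of all genes lower and 7.26% higher) and 2 of 4 in cells without one (Pdcd1 and Ctla4; 1.5% and 4.61%). In ILC1/NK cells 1 of 5 was called higher (Havcr2; 6.26%) and 0 lower (1.85%), and in Plet1-positive dendritic cells 0 of 3 were called (5.27% higher and 2.95% lower among all genes). In the Ncr1+ cells with ILC2 markers 0 of 3 were called (6.48% and 1.06%), and in macrophages 0 of 6 (6.57% and 2.07%). The median log2 ratio of all genes was not 0 but 0.13 in ILC1/NK cells, 0.17 in ILC2, 0.16 in ILC3 and 0.15 in dendritic cells. Relative to that median each of these receptors kept its call, while the share of higher genes among all called genes went from 77.2% to 60.1% in ILC1/NK cells, from 73.5% to 54.1% in ILC2, from 69.1% to 47.5% in ILC3 and from 64.1% to 44.0% in dendritic cells. In the other 8 classes and subsets it went from between 73.4% and 92.6% to between 41.0% and 64.1%.

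**Figure D2:**
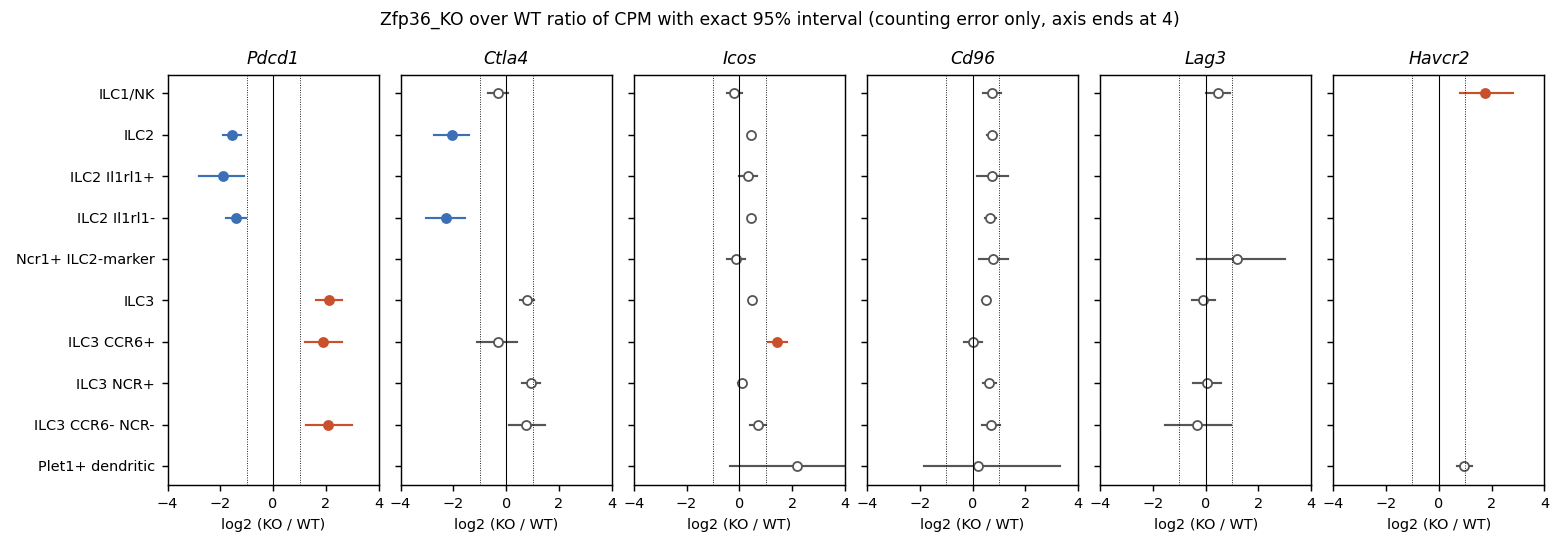
Log2 ratio of knockout over WT CPM for 6 receptors by cell class, with exact 95% intervals; filled points are called, open points are not, dotted lines mark 2-fold, and pairs under 20 UMIs are not drawn. Pdcd1 lies below 0 in ILC2 and above 0 in ILC3, and Cd96 lies between 0 and 1 in every ILC class drawn, at 0.015 in CCR6+ ILC3.

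Pdcd1 went in opposite directions in ILC2 and ILC3. In ILC2, the type 2 cells marked by Gata3, it stood at 53.7 CPM in WT (206 UMIs in 119 cells) and 18.4 CPM in knockout (117 UMIs in 83 cells), a log2 ratio of -1.54 (interval -1.88 to -1.21). In ILC3, the cells that make IL-22, it stood at 11.5 CPM in WT (44 UMIs in 32 cells) and 49.4 CPM in knockout (182 UMIs in 99 cells), a log2 ratio of 2.10 (1.62 to 2.61). WT ILC2 thus lay above WT ILC3, and the knockout values lay in the reverse order. When all cells were clustered by expression without the 7 receptors, the clusters that made up each class differed in share between the libraries. Cluster 0 held 31.9% of WT and 59.8% of knockout ILC2, cluster 6 held 34.2% and 17.4%, and cluster 7 held 24.3% and 16.3%. Within each of these clusters Pdcd1 was lower in knockout ILC2, at 39.5 against 12.9 CPM (WT first) in cluster 0, 85.8 against 47.4 in cluster 6 and 36.6 against 14.4 in cluster 7. Of ILC3, cluster 1 held 42.8% in WT and 29.7% in knockout, cluster 2 37.9% and 34.1%, and cluster 4 16.6% and 34.5%. Pdcd1 in these was higher in the knockout each time, at 26.7 against 92.4 CPM in cluster 1, 0.605 against 17.7 in cluster 2 (1 WT UMI) and 9.26 against 64.1 in cluster 4 (5 WT UMIs). The richest cell held 3.88% of the Pdcd1 UMIs of WT ILC2 and 4.95% of those of knockout ILC3.

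Both groups of ILC2 split by Il1rl1 had the lower value. Cells with a UMI of Il1rl1, the IL-33 receptor, had 81.1 CPM of Pdcd1 in WT and 21.5 CPM in knockout (log2 ratio -1.91, -2.79 to -1.11), and cells without one had 47.4 and 18.0 CPM (-1.40, -1.78 to -1.02). Within WT the Il1rl1-positive cells lay above the negative ones, with intervals of 61.6 to 105 and 40.1 to 55.7 CPM. The Ncr1+ cells with ILC2 markers had 0 UMIs in 104 WT cells, which allows up to 4.22 CPM, and 2 UMIs in 166 knockout cells. Knockout ILC2 with Y-linked UMIs had 23.8 CPM (14.9 to 36.0) and those with Xist 18.2 CPM (14.6 to 22.3), and the 2 intervals overlap. Against the Y-linked cells alone the log2 ratio was -1.18 in ILC2. In Il1rl1-negative ILC2, with 20 UMIs in the knockout, it was -0.97, which is below 2-fold. WT held 0 cells with Y-linked UMIs and no Xist, so these 2 ratios also compare unlike sexes. WT ILC2 with Xist and no Y-linked UMIs had 53.4 CPM (46.3 to 61.3), against the 18.2 CPM of knockout ILC2 with Xist.

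The ILC3 subsets differed in level as well. In CCR6+ cells, which resemble lymphoid tissue inducer cells, the Pdcd1 level was 19.3 CPM for WT and 71.6 for knockout (1.89, 1.21 to 2.60). Cells without Ccr6 or Ncr1 UMIs had 20.5 CPM (14 UMIs in 7 cells) and 86.2 CPM (100 UMIs in 48 cells), a log2 ratio of 2.07 (1.26 to 2.99). NCR+ cells had 3 UMIs in 266 WT cells and 13 UMIs in 275 knockout cells, too few to be tested, and whether the subsets differ in ratio was not tested. Cells without Ccr6 or Ncr1 UMIs made up 164 of 766 WT ILC3 and 319 of 844 knockout ILC3, and they are the shallowest subset (median 4158.5 and 3346 UMIs), and whether they hold cells of the other subsets with a missed marker was not tested. Knockout ILC3 with Y-linked UMIs had 49.5 CPM of Pdcd1 and those with Xist 43.3 CPM, both above the WT interval of 8.39 to 15.5 CPM.

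Shares of cells gave the same order at equal depth. After each cell was thinned to 2000 UMIs, 8.05% of WT ILC2 and 3.56% of knockout ILC2 had a UMI of Pdcd1 (21.1% and 8.14% before thinning). In ILC3 the thinned shares were 2.39% and 7.51%, with 3.57% and 11.8% in CCR6+ cells and 3.25% and 10.1% in cells without Ccr6 or Ncr1 UMIs. Plasma cells, which should lack Pdcd1, had 1 UMI in each library (0.273 and 0.226 CPM) at medians of 39448 and 30634 UMIs per cell, and 0 of 97 and 0 of 148 thinned cells, the exact interval for which ends at 3.73% and 2.46%. ILC1/NK cells, at 2.05 and 2.0 CPM and thinned shares of 0.575% and 1.16%, had intervals that overlap those of plasma cells. Plasma cells are far deeper than ILCs, so their values need not equal the background of the ILC classes.

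RNA set free from T cells would carry Trac, the T cell receptor alpha constant gene, along with the receptors. Trac was lower in knockout ILC2 (2.21 against 6.51 CPM) and in knockout ILC3 (4.89 against 15.7 CPM), in a library with 59 against 1180 T cells. WT T cells had 0.0474 Pdcd1 UMIs per Trac UMI, and by kind 0.0260 in CD8, 0.0327 in conventional, 0.118 in regulatory and 0.40 in gamma-delta T cells of IL-17 type (16 Pdcd1 and 40 Trac UMIs). WT ILC2 had 8.24 and WT ILC3 0.733 (44 Pdcd1 and 60 Trac UMIs), and knockout ILC2 and ILC3 had 8.36 and 10.1. The part of free RNA in these levels was not tested. By level in WT, Pdcd1 was highest in regulatory T cells (134 CPM, 110 to 162), followed by Il1rl1-positive ILC2, the gamma-delta T cells of IL-17 type (49.0, 28.0 to 79.6), Il1rl1-negative ILC2 and conventional T cells (37.2, 31.6 to 43.5). From the third place down, each of these overlapped the one above it. In the knockout the first places went to ILC3 without Ccr6 or Ncr1 UMIs and to CCR6+ ILC3, whose intervals overlap, and both lay above every other class compared, leaving out the T cell kinds with few cells.

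**Figure D3:**
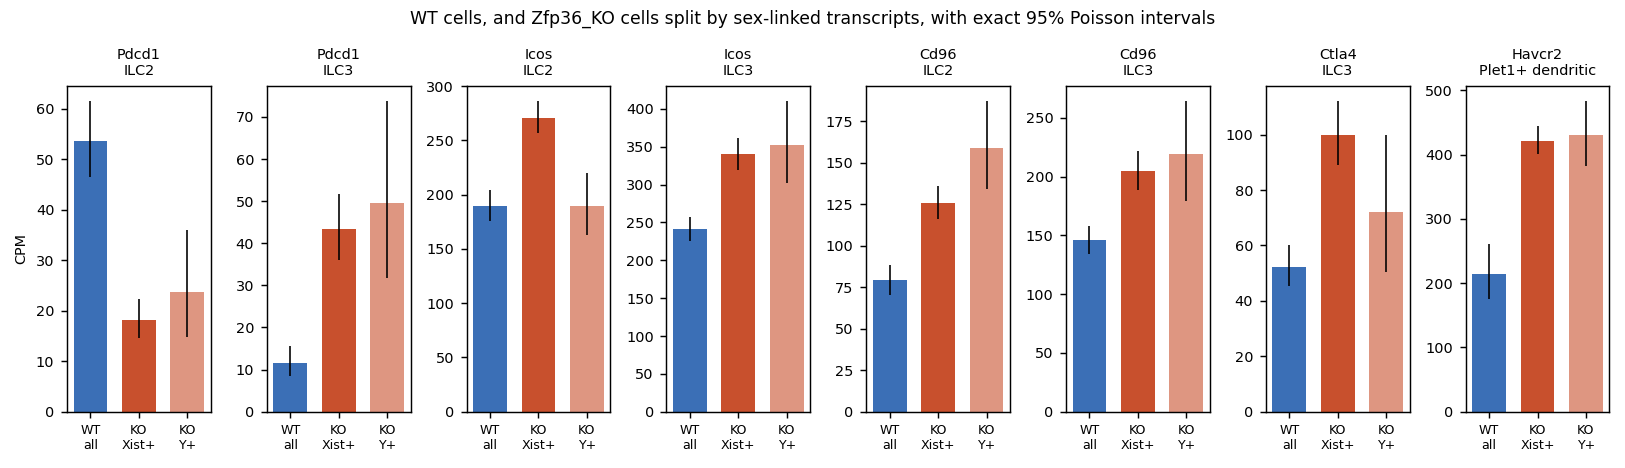
Level (CPM) of a receptor in all WT cells of a class (blue) and in knockout cells of the same class with Xist and no Y-linked UMIs (dark red) or with Y-linked UMIs and no Xist (light red), with exact 95% Poisson intervals; each panel has its own axis from 0. Both kinds of knockout cells lie on the same side of WT for Pdcd1, Cd96 and Havcr2, whereas Icos in ILC2 is 190 CPM both in WT and in knockout cells with Y-linked UMIs, and for Ctla4 in ILC3 the interval of the latter reaches that of WT.

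Ctla4 was lower in knockout ILC2 and was not called in any other ILC class. In ILC2 it stood at 18.2 CPM in WT (70 UMIs in 40 cells) and 4.41 CPM in knockout (28 UMIs in 14 cells), a log2 ratio of -2.05 (-2.73 to -1.40). The same was seen in Il1rl1-negative cells (19.2 and 3.96 CPM, -2.28), while Il1rl1-positive cells had too few UMIs to be tested (10 and 6). The size of this difference varied with the calculation: it was -3.06 when each cell had equal weight and -1.08 against knockout cells with Y-linked UMIs, which rest on 8 UMIs. In Il1rl1-negative ILC2 the latter comparison gave -0.99, below 2-fold. Dendritic cells had 2.03 CPM of Ctla4 in WT (0.0514 to 11.3) and 4.17 CPM in knockout (2.47 to 6.60), near the knockout ILC2 value. They are deeper than ILC2, and 0 of the 14 knockout ILC2 with Ctla4 had Trac. Whether the knockout ILC2 value is background was not tested. The WT ILC2 cells had 2.80 Ctla4 UMIs per Trac UMI, and 3 of the 40 cells with Ctla4 also had Trac. WT T cells had 0.837 as a whole and 1.77 in regulatory T cells, against 1.0 in WT Il1rl1-positive ILC2 and 1.40 in the WT Ncr1+ cells with ILC2 markers. The part of free T cell RNA in the WT ILC2 level was not tested.

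In ILC3 Ctla4 stood at 52.2 CPM in WT and 90.4 CPM in knockout (log2 ratio 0.79, 0.53 to 1.05), short of 2-fold. NCR+ ILC3 carried most of it, with 79.0 CPM (120 UMIs in 55 cells) and 151 CPM (229 UMIs in 59 cells), a log2 ratio of 0.93 (0.61 to 1.26). The share of NCR+ cells with a UMI was 20.7% and 21.5% before thinning and 11.3% and 14.9% after, with overlapping intervals. The knockout NCR+ value includes 1 cell with 25 UMIs. ILC3 without Ccr6 or Ncr1 UMIs had 39.6 and 67.2 CPM (0.76, 0.12 to 1.45), and there 1 knockout cell held 30 of the 78 UMIs, while the thinned share of cells was 7.79% in WT and 4.89% in knockout. CCR6+ cells had 34.4 and 27.5 CPM (-0.32, -1.11 to 0.42). With classes taken from clusters, clusters 1 and 4 stood for CCR6+ ILC3 and gave the opposite sign, 0.92 (69 and 137 UMIs). Of their gated cells 307 of 572 and 215 of 406 were CCR6+ ILC3, so that value is for a mixed set. In ILC1/NK cells, the innate counterparts of type 1 and cytotoxic T cells, Ctla4 was 131 and 106 CPM (-0.30, -0.69 to 0.079), and thinned shares were 17.2% and 17.3%. Trac was also found in 12 of the 53 WT and 2 of the 37 knockout ILC1/NK cells with Ctla4. In ILC3 it was found in 11 of the 94 WT and 2 of the 88 knockout cells with Ctla4. The part of T cells or free T cell RNA in these levels was not tested.

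Icos was called higher in 1 ILC class. CCR6+ ILC3 had 76.6 CPM in WT (107 UMIs in 74 cells) and 207 CPM in knockout (173 UMIs in 89 cells), a log2 ratio of 1.43 (1.08 to 1.79). Thinned shares were 14.3% and 26.9%. In the knockout, CCR6+ cells with Y-linked UMIs had 228 CPM and those with Xist 194 CPM, both above the WT interval of 62.8 to 92.5 CPM. NCR+ ILC3, which had the highest Icos of the ILC classes, had 414 CPM in WT and 440 in knockout (0.089, -0.070 to 0.25). ILC3 without Ccr6 or Ncr1 UMIs lay between, at 191 and 308 CPM (0.69, 0.40 to 0.99). The WT gap between CCR6+ and NCR+ cells, 76.6 against 414 CPM, was narrower in the knockout, 207 against 440 CPM.

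In ILC2 the Icos level was 190 CPM for WT and 258 for knockout (0.44, 0.32 to 0.57). It was not seen in all knockout cells: those with Y-linked UMIs had 190 CPM (163 to 220), the WT level, and those with Xist had 271 CPM (257 to 286). ILC1/NK cells had 221 and 194 CPM (-0.19, -0.47 to 0.10). Dendritic cells and plasma cells had 2.03 and 4.36 CPM of Icos in WT and 9.27 and 0.904 CPM in knockout. Both are deeper than ILCs, so these low levels need not equal the background of the ILC classes. The call of a lower Icos in plasma cells (1 of 3 receptors tested, 0.939% of all genes called lower and 11.7% higher) rests on 16 UMIs in 6 WT cells and 4 UMIs in knockout and lies among these low levels.

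Cd96 was not called in any class. It was higher in the knockout by less than 2-fold in 5 of 6 ILC classes that do not overlap: 121 and 199 CPM in ILC1/NK cells (0.72, 0.39 to 1.06), 79.2 and 131 CPM in ILC2 (0.72, 0.53 to 0.91), 57.7 and 98.9 CPM in the Ncr1+ cells with ILC2 markers (0.78, 0.24 to 1.34), 146 and 228 CPM in NCR+ ILC3 (0.64, 0.40 to 0.89), and 147 and 236 CPM in ILC3 without Ccr6 or Ncr1 UMIs (0.69, 0.35 to 1.03). These intervals lie above 0, but the medians of all genes in these classes, 0.13 to 0.19, are above 0 as well. CCR6+ ILC3 was the exception, at 145 CPM in WT and 147 in knockout (0.015, -0.32 to 0.35). In WT the 3 ILC3 subsets had almost the same level, 145 to 147 CPM. Knockout ILC2 with Y-linked UMIs had 159 CPM and those with Xist 126 CPM, both above the WT interval of 70.6 to 88.6. The thinned share of cells with Cd96 in ILC2 was 15.9% in WT and 23.5% in knockout, and plasma cells had 0 of 97 and 0 of 148.

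Tigit, which shares its ligand with Cd96, was seen by 41 UMIs in 40 of the 1180 WT T cells (5.96 CPM). Conventional T cells held 34 of them (8.16 CPM, 5.65 to 11.4) and regulatory T cells 5 (6.33 CPM, 2.06 to 14.8), whose intervals overlap. In the ILC classes it did not pass 3 UMIs: WT had 1 UMI in ILC1/NK cells, 0 in ILC2 and 1 in ILC3, and knockout had 0, 1 and 3. For ILC2 the 0 in WT allows up to 0.782 CPM. No ratio is given at this depth.

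Among the ILC classes Lag3 was highest in ILC1/NK cells, followed by NCR+ ILC3. ILC1/NK cells had 72.6 CPM in WT (71 UMIs in 52 cells) and 100 CPM in knockout (100 UMIs in 56 cells), a log2 ratio of 0.46 (0.009 to 0.92) that was not called. NCR+ ILC3 had 38.8 and 40.1 CPM (0.046, -0.49 to 0.59), above CCR6+ ILC3 with 10.0 and 4.78 CPM, and the intervals of the 2 subsets did not overlap in either library. ILC3 without Ccr6 or Ncr1 UMIs had 16.1 CPM of Lag3 in WT and 12.9 CPM in knockout (-0.32, -1.54 to 0.95). ILC2 had 2 UMIs in WT and 11 in knockout, or 0.521 and 1.73 CPM, and plasma cells had 2.18 and 3.84 CPM, while the Ncr1+ cells with ILC2 markers had 7.03 and 16.0 CPM. Their intervals did not overlap that of ILC2 in either library. Among WT T cells Lag3 was highest in regulatory T cells (114 CPM, 91.7 to 140), then in CD8 T cells (48.2, 36.2 to 62.9) and conventional T cells (18.2, 14.4 to 22.8), and the 52 gamma-delta T cells of IL-17 type had 0 UMIs, which allows up to 9.19 CPM.

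Havcr2 was highest in dendritic cells in both libraries. Plet1-positive dendritic cells had 215 CPM in WT (106 UMIs, with a UMI in 20 of 20 cells) and 422 CPM in knockout (1820 UMIs, in 173 of 176 cells), a log2 ratio of 0.97 (0.69 to 1.27), just short of the 2-fold limit. Knockout dendritic cells with Y-linked UMIs had 430 CPM and those with Xist 422 CPM, both above the WT interval of 176 to 261 CPM. After thinning, 10 of 20 WT cells and 58.0% of the knockout cells had a UMI, with a WT interval of 27.2% to 72.8% from 20 cells. The class called macrophages, which also carried lymphoid transcripts, had 90.9 and 75.9 CPM (-0.26, -0.80 to 0.31). With equal weight per cell its ratio had the opposite sign, 0.23.

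Among lymphoid cells Havcr2 was rare. Its call in ILC1/NK cells, 12.3 CPM in WT and 41.0 CPM in knockout (1.74, 0.79 to 2.80), rests on 3 WT and 5 knockout cells, with 18 of the 41 knockout UMIs in 1 cell. With equal weight per cell the log2 ratio was 0.86. It was 0.64 against knockout cells with Y-linked UMIs, which hold 2 UMIs, so the call was lost each time. With classes taken from clusters, at least 1 library had too few Havcr2 UMIs in ILC1/NK cells for a ratio. ILC3 had 3 and 5 UMIs in all, and ILC2 had 1 and 15. In WT T cells it was seen in 17 of 1180 cells, with 15.3 CPM in the gamma-delta T cells of IL-17 type (5 UMIs, all in 1 cell), 14.3 CPM in CD8 T cells and 0.959 CPM in conventional T cells.

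**Figure D4:**
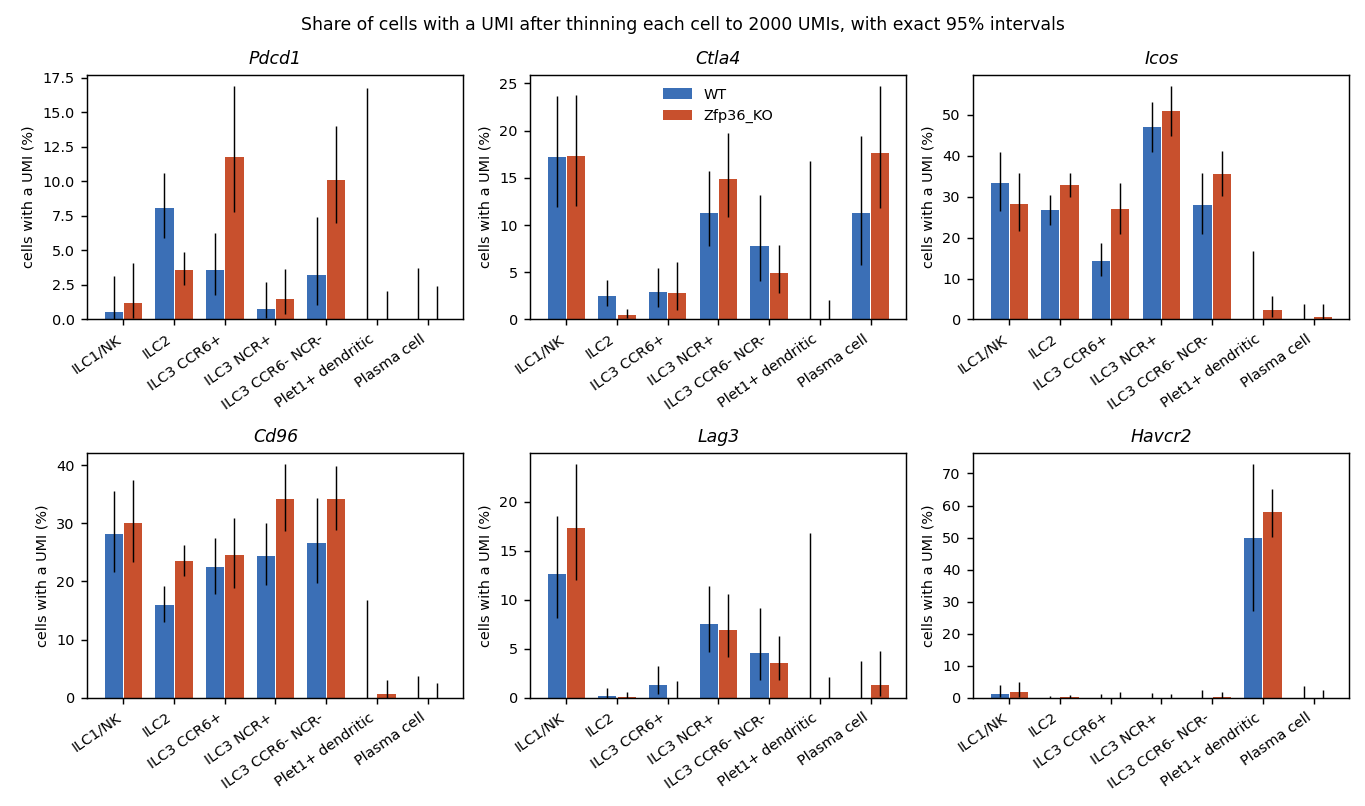
Share of cells with a UMI (percent) of 6 receptors after thinning each cell to 2000 UMIs, by class, in WT (blue) and Zfp36_KO (red), with exact 95% intervals; each panel has its own axis from 0. Pdcd1 is in 8.05% of WT and 3.56% of knockout ILC2 and in 3.57% and 11.8% of CCR6+ ILC3. Plasma cells were far deeper before thinning, so their bars need not show the background of the ILC classes.

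T cells could be described in WT only, because the knockout library held 59 of them. By kind these were 5 conventional, 1 regulatory, 3 CD8 and 14 gamma-delta T cells of IL-17 type, and their summed Trac was 77.5 CPM against 949 CPM in WT, so the 2 groups are different mixtures and no ratio is given. In WT the regulatory T cells, which use CTLA-4 to restrain other cells, had 2021 CPM of Ctla4 (1923 to 2123) with a UMI in 114 of 115 cells. Conventional T cells had 829 CPM (801 to 857), CD8 T cells 254 CPM (226 to 286) and the gamma-delta cells 116 CPM (82.4 to 160), and no neighbours in that order overlapped. Icos was 607 CPM in regulatory and 570 CPM in conventional T cells, whose intervals overlap, 325 CPM in the gamma-delta cells and 167 CPM in CD8 T cells. Cd96 had another order, with CD8 T cells at 172 CPM, conventional T cells at 145 CPM, gamma-delta cells at 88.8 CPM and regulatory T cells at 84.9 CPM. The 14 knockout gamma-delta cells had 189 CPM of Ctla4 (103 to 317) and 514 CPM of Icos (363 to 705), with 14 and 38 UMIs.

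Cells with UMIs of several receptors were most frequent in WT regulatory T cells. In thinned WT ILC3, 1.06% of cells had UMIs of 3 or more of the 7 genes and 47.6% had none, and in knockout ILC3 these shares were 3.87% and 36.8%. In ILC2 they were 0.716% and 54.7% in WT and 0.396% and 50.5% in knockout. ILC1/NK cells had 3 or more of the genes in 5.75% of thinned WT cells and 5.2% of thinned knockout cells, and 2 or more in 24.7% and 28.9%. In NCR+ ILC3 the shares were 1.13% and 6.91% for 3 or more and 21.8% and 29.5% for 2 or more. In WT T cells 3 or more were found in 26.3% of regulatory and 4.24% of CD8 cells. Pdcd1 and Ctla4 were found in the same thinned cell 8 times among 826 knockout ILC3 (62 cells with Pdcd1 and 64 with Ctla4), 1 time among 754 WT ILC3 and 0 times among 1011 knockout ILC2. These counts depend on how many cells carry each gene, and knockout ILC2 had 14 cells with Ctla4 even before thinning. Predicted doublets removed were 37 in WT and 5 in knockout, so doublets may add to the knockout counts. Whether the 2 genes occur together more often than their shares give was not tested. In knockout ILC3, Icos was found in 59.4% of the cells with Ctla4 and in 36.5% of those without. In WT ILC3 the same shares were 43.4% and 28.1%. Among the ILC3 subsets both receptors were highest in NCR+ cells, where the shares were 75.6% and 46.6% in knockout and 56.7% and 45.8% in WT.

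The ligands of these receptors were counted from a list of 13 genes. In Plet1-positive dendritic cells 3 of 11 tested were called higher and 0 lower (5.27% and 2.95% of all genes), with a median log2 ratio of 1.13 against 0.15 for all genes. Cd274, which encodes PD-L1, had 99.6 CPM in WT and 266 CPM in knockout (1.42, 1.0 to 1.86), Cd80, a ligand of CTLA-4, had 32.5 and 70.9 CPM (1.13, 0.40 to 1.95), and Pvr, the poliovirus receptor bound by TIGIT and CD96, had 14.2 and 37.6 CPM (1.40, 0.32 to 2.74). The WT side of these values rests on 49, 16 and 7 UMIs in 20 cells. In ILC3 2 of 7 were called higher (3.87% of all genes), Cd274 at 19.2 and 39.4 CPM (1.04) and Pvr at 5.25 and 12.8 CPM (1.28), with a median of 0.22 against 0.16. In ILC2 1 of 7 was called higher (4.77%), Lgals3 (8 and 97 UMIs), a galectin that can bind LAG-3, and in ILC1/NK cells 1 of 7 (6.26%), Cd86 at 17.4 and 39.0 CPM (1.17).

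Of 9 other co-receptors, 6 were tested in ILC3, where 0 were called higher and 1 lower (3.87% and 1.73% of all genes): Cd28, the activating receptor for CD80 and CD86, with 18 UMIs in WT and 2 in knockout. Trac had 60 and 18 UMIs in the same cells, which gives 0.30 Cd28 UMIs per Trac UMI in WT ILC3, within the range of the WT T cell kinds (0.274 to 0.480). The part of free T cell RNA in this call was not tested. In CCR6+ ILC3 Cd244, a receptor of the SLAM family, was called higher (10.0 and 23.9 CPM, 1.25; 1 of 5, against 5.72% of all genes), as it was in ILC3 without Ccr6 or Ncr1 UMIs (10.3 and 43.9 CPM, 2.10; 1 of 5, against 5.61%), where Vsir, which encodes VISTA, was called lower (29.3 and 7.76 CPM, -1.92; 1 of 5, against 1.51%). In ILC1/NK cells 7 were tested, with 1 higher, Btla (4 and 26 UMIs), and 1 lower, Cd28 (41.9 and 16.0 CPM, -1.39), against 6.26% and 1.85% of all genes. There Trac had 35 and 12 UMIs, and Cd28 had 1.17 and 1.33 UMIs per Trac UMI, above the WT T cell kinds; the part of free RNA was not tested. In ILC2 1 of 6, Btla, was higher (6 and 25 UMIs; 4.77% of all genes), and in dendritic cells 1 of 6, again Btla, was lower (52.8 and 25.7 CPM, -1.04; 2.95%). The 11 signalling partners of the receptor tails were all tested in ILC1/NK cells, ILC2 and ILC3, and 0 were called. Of all genes, 6.26%, 4.77% and 3.87% were called higher in these classes and 1.85%, 1.72% and 1.73% lower. With 11 genes, 0 calls lies near those shares. The medians of the partners were 0.012, 0.058 and 0.23, against 0.13, 0.17 and 0.16 for all genes. In Il1rl1-positive ILC2 1 of 11 was called higher (7.26% of all genes), Pik3r1, a regulatory subunit of phosphoinositide 3-kinase, at 102 and 215 CPM (1.08, 0.67 to 1.49). In dendritic cells 2 of 10 were called higher, Pik3r1 (48.8 and 112 CPM) and Fyn (26.4 and 63.5 CPM), against 5.27% of all genes, and in NCR+ ILC3 1 of 11 (4.43%), Ptpn11, the phosphatase SHP-2 that PD-1 recruits (27.0 and 59.2 CPM, 1.13).

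Among 14 transcription factors tied to checkpoint expression, the calls in ILC2 and ILC3 were on different genes, a difference that was not tested. In ILC2 2 of 14 were lower (1.72% of all genes), Tox, a factor of exhausted T cells that also acts in ILC development, at 89.9 CPM in WT and 42.4 in knockout (-1.08, -1.32 to -0.85), and Irf4 at 8.08 and 3.00 CPM (-1.43). In ILC3 1 of 13 was higher and 1 lower (3.87% and 1.73% of all genes): Zeb2, a zinc finger repressor, at 32.0 and 121 CPM (1.92, 1.63 to 2.22), and the immediate-early nuclear receptor Nr4a2 at 67.7 and 33.7 CPM (-1.01, -1.33 to -0.69). Zeb2 was called higher in each of the 3 ILC3 subsets (5.72%, 4.43% and 5.61% of all genes in CCR6+, NCR+ and the remaining cells), from 60.8 to 173 CPM in CCR6+, 7.90 to 88.8 CPM in NCR+ and 23.5 to 120 CPM in the remaining cells. Nr4a2 was called lower in CCR6+ cells (109 and 34.6 CPM; 1.66% of all genes) and in the remaining cells (70.4 and 16.4 CPM; 1.51%). In NCR+ cells Nr4a2 lay the other way, at 29.0 CPM in WT (44 UMIs) and 48.7 CPM in knockout (74 UMIs), a log2 ratio of 0.75 (0.19 to 1.32) that was not called. Tox2 was called higher in NCR+ cells (5 and 31 UMIs). In ILC1/NK cells 0 of 12 were called, which with 12 genes lies near the shares of all genes (6.26% higher and 1.85% lower). In Il1rl1-positive ILC2 1 of 11 was higher (7.26% of all genes), Prdm1 (4 and 17 UMIs). In dendritic cells 2 of 12 were higher (5.27%), Prdm1 (30.5 and 87.9 CPM) and Ikzf2 (1 and 71 UMIs).

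The genes whose levels followed each receptor most closely were taken over 20 columns, each 1 class in 1 library with at least 50 cells, by Pearson's r of log2(CPM + 1). The columns share 2 libraries and the same free RNA, and r is a description. Pdcd1 was followed by Cdc42se2 (0.85), Cdk6 (0.83) and Pex3 (0.80), and Ctla4 by Cd28 (0.80), the receptor it competes with, Ubald2 (0.77) and Sit1 (0.76). For Icos the 3 nearest were Nt5e, Zap70 and Maf (0.96 each), and for Cd96 they were Cdk17 (0.98), Stk39 and Rnf2 (0.97 each). Lag3 lay nearest to Mmp9 (0.85), Mapre2 (0.81) and Top1 (0.76), and Havcr2 to Gpr137b (0.94), Tbc1d9 (0.93) and Anpep (0.92). Tigit, with 55 UMIs in all, lay nearest to Cd4 (0.80), Tnfrsf4 (0.80) and Il10 (0.79).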

How the data were processed

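Raw UMI counts per gene and cell barcode were used as deposited by the authors. Per the file headers and the submitters' processing notes they were made with Cell Ranger 3.1.0 and build mm10, and per the labels with the 3 prime v2 kit. The annotation release is not given in the sources used here. RNA outside cells was not measured here.

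The members and gene lists were chosen with earlier results of these data known. Of 3593 WT and 3522 knockout barcodes (24721524 and 27733804 UMIs, 2 barcode sequences shared), those with at least 500 genes and at most 10% mitochondrial UMIs were kept. Scrublet in scanpy 1.11.5 then removed 37 (1.09%) and 5 (0.150%) predicted doublets. The second share is too low for the caller to have worked, so doublets may remain in the knockout. That left 3360 and 3334 cells, of which 2955 and 2732 entered a class. Cells passing 2 gates (47 and 25) were dropped, and 358 and 577 passed none.

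Gates used summed marker UMIs: plasma cells at least 4 of Mzb1, Derl3 and Tnfrsf17 without Flt3; macrophages at least 5 of C1qa, C1qb and C1qc; dendritic cells Plet1 and at least 2 of Flt3, Zbtb46 and Itgax; T cells at least 3 of Cd3d, Cd3e and Cd3g from 2 genes. Among the rest, ILC3 had at least 2 of their marker genes, Il23r and Il1r1 among them, and at most 1 of Il17rb, Hs3st1, Il1rl1 and Klrg1, and were split by Ccr6 and Ncr1. ILC2 had at least 2 of those 4 genes and 4 with Gata3, without Il23r, Ncr1 or the unnamed ILC3 marker. ILC1/NK cells had at least 3 of Ncr1, Klrb1c, Klrk1, Tbx21 and Eomes, without the ILC3 genes. T cell kinds were read from Foxp3, then Cd8a or Cd8b1, then Trdc with Cd163l1, Blk, Sox13 or a further marker, then Trac. Markers left unnamed are not reported here.

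Counts were summed per class and library and scaled to CPM. CPM has exact Poisson intervals, ratios the exact binomial split of UMIs, and shares Clopper-Pearson intervals (95%). A count of 0 allows 3 counts. Thinned shares leave out cells under 2000 UMIs. The calculation was tested on simulated data. Genes named are the members, called genes of 4 fixed lists (up to 4 per list and class, by the end of the interval nearest 0) and the 3 most alike genes per member with at least 200 UMIs. Other filters, gates, scalings and clusters (Leiden, leidenalg 0.10.2) were tried as alternatives, and knockout cells with Y-linked UMIs alone were added after seeing the data.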

Additional observations from a re-analysis of the deposited data

Results flagged for a closer look

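Pdcd1 moved in opposite directions under the same contrast, with a log2 ratio of -1.54 in ILC2 and 2.10 in ILC3. With 1 library per genotype the difference between these ratios was not tested.

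Ctla4 was found in plasma cells, which are neither ILCs nor T cells, at 85.9 CPM in WT (315 UMIs in 53 of 97 cells) and 105 CPM in knockout (465 UMIs in 84 of 148 cells). After thinning, 11.3% and 17.6% of plasma cells had a UMI, against 0 of 20 WT and 0 of 176 knockout dendritic cells. Plasma cells had 35 and 465 Ctla4 UMIs per Trac UMI, where WT T cells had 0.837, and 5 of the 53 WT cells with Ctla4 also had Trac. The knockout to WT log2 ratio was 0.29 (0.081 to 0.50) and -0.060 relative to the median of all genes in that class. It was also below 0 with classes taken from clusters (-0.24, 540 and 490 UMIs) and against knockout cells with Y-linked UMIs (-0.50, 31 knockout UMIs). The direction of this ratio thus depended on the calculation.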

How the results depend on the processing

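No paired analysis was possible because each genotype has 1 library. The 11 called receptor ratios gave 93 values under alternatives, of which 85 lay within the counting interval of the reported ratio, 8 lay outside it and 0 changed sign. With cells with Y-linked UMIs left out, 49 of 49 receptor ratios, called or not, lay within their counting intervals. An alternative chosen after seeing the data compared WT with only those knockout cells that had Y-linked UMIs. WT held 0 cells with Y-linked UMIs and no Xist, so this alternative also compares unlike sexes. There Pdcd1 gave -1.18 in ILC2 and -0.97 in Il1rl1- ILC2. Ctla4 gave -1.08 and -0.99 in the same classes, and Havcr2 in ILC1/NK cells gave 0.64. With equal weight per cell Ctla4 gave -3.06 in ILC2 and -3.31 in Il1rl1- ILC2. With classes taken from clusters it gave -3.61 in ILC2, where the WT side then held 380 UMIs. Of the clusters that stood for ILC2, cluster 16 had only 23 ILC2 among its 57 gated cells, so that value is for a mixed set. The causes of these shifts were not tested. Pdcd1 in ILC3 stayed between 1.94 and 2.20 under the 9 alternatives. An alternative with 0 UMIs in 1 library gave no ratio (Icos in plasma cells against knockout cells with Y-linked UMIs). The 2 ILC2 groups split by Il1rl1 and CCR6- NCR- ILC3 formed no class of their own from clusters, so they had no ratio there. ILC1/NK cells did form one, but at least 1 library had too few Havcr2 UMIs in it for a ratio. Of 329 values for ratios not called, 299 lay within the interval. Some of the 329 had the opposite sign to the reported ratio, among them values for Ctla4 in CCR6+ ILC3 and in plasma cells.

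Counts of called genes depended on the rule. As reported, the genes called higher and lower were 505 and 149 in ILC1/NK cells, 493 and 178 in ILC2, 501 and 120 in Il1rl1+ ILC2, 465 and 151 in Il1rl1- ILC2, 477 and 78 in Ncr1+ ILC2-marker cells, 407 and 182 in ILC3, 497 and 144 in CCR6+ ILC3, 400 and 145 in NCR+ ILC3, 465 and 125 in CCR6- NCR- ILC3, 486 and 272 in dendritic cells, 578 and 182 in macrophages and 938 and 75 in plasma cells. With 1.5-fold in place of 2-fold they were 1032 and 342 in ILC1/NK cells, 1509 and 364 in ILC2, 946 and 251 in Il1rl1+ ILC2, 1387 and 334 in Il1rl1- ILC2, 1025 and 161 in Ncr1+ ILC2-marker cells, 1433 and 428 in ILC3, 1272 and 338 in CCR6+ ILC3, 1124 and 332 in NCR+ ILC3, 1068 and 300 in CCR6- NCR- ILC3, 865 and 441 in dendritic cells, 1051 and 305 in macrophages and 1879 and 135 in plasma cells. With at least 100 UMIs per gene they were 110 and 29 in ILC1/NK cells, 210 and 60 in ILC2, 93 and 33 in Il1rl1+ ILC2, 211 and 51 in Il1rl1- ILC2, 89 and 3 in Ncr1+ ILC2-marker cells, 159 and 59 in ILC3, 121 and 34 in CCR6+ ILC3, 115 and 41 in NCR+ ILC3, 121 and 26 in CCR6- NCR- ILC3, 390 and 94 in dendritic cells, 298 and 52 in macrophages and 304 and 21 in plasma cells. Relative to the median of all genes they were 352 and 234 in ILC1/NK cells, 303 and 257 in ILC2, 280 and 194 in Il1rl1+ ILC2, 286 and 217 in Il1rl1- ILC2, 265 and 152 in Ncr1+ ILC2-marker cells, 245 and 271 in ILC3, 280 and 262 in CCR6+ ILC3, 258 and 220 in NCR+ ILC3, 255 and 213 in CCR6- NCR- ILC3, 298 and 379 in dendritic cells, 252 and 363 in macrophages and 347 and 194 in plasma cells. Thinning moved 153 of 210 shares outside their unthinned interval. Tigit in the ILC classes and Havcr2 in ILC2 and ILC3 had too few UMIs for a ratio, where low expression and limited depth cannot be told apart, and the ratios in dendritic cells rest on 20 WT cells.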
